A study of Mus musculus with 27 samples.

Results

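Somatostatin (Sst) interneurons were examined in single-nucleus RNA-seq of the hippocampus of 27 mice. A nucleus was counted as an Sst nucleus when it had 200 to 8000 detected genes, at most 5% of its molecules (unique molecular identifiers, UMIs) from mitochondrial genes, at least 3 UMIs of Gad1 and Gad2 together, at most 1 UMI of Slc17a7, at most 1 UMI of Mog and Mag together, at least 3 UMIs of Sst, and more UMIs of Sst than of each of Pvalb, Vip and Lamp5. The members were thus chosen by measured values, and the levels of these 9 genes are a description of the choice. Of 241938 barcodes, 241266 passed the limits on genes and mitochondrial UMIs, 14328 of these passed the GABAergic part of the rule, and 896 were Sst nuclei. This was 6.25% of the GABAergic nuclei and 0.371% of all kept nuclei. By the same rule with the marker exchanged, 138 nuclei were Pvalb, 439 were Vip and 205 were Lamp5 nuclei, and 12650 GABAergic nuclei fell in no class.

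Somatostatin interneurons are inhibitory neurons that arise in the medial ganglionic eminence (MGE), where the transcription factor Lhx6 and its target programme with Sox6 and Satb1 set their fate. In the hippocampus they include the oriens-lacunosum moleculare and hilar perforant path-associated cells, which place GABA synapses on the distal dendrites of principal cells, and long-range neurons that contain nitric oxide synthase. Their peptide is released from dense-core vesicles with GABA, acts on Gi-coupled receptors and dampens excitability, and its loss is a known feature of Alzheimer's disease.

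The mice came from a cross of P301S tau transgenic mice, in which the prion promoter drives a human mutant tau cDNA in neurons throughout the brain, with mice that lack Cgas, the cytosolic DNA sensor, in every cell. Non-transgenic libraries were labelled Cgas+/+ (n = 5, 3 males and 2 females), Cgas+/- (n = 2, males) or Cgas-/- (n = 2, males), and transgenic libraries P301S Cgas+/+, P301S Cgas+/- or P301S Cgas-/- (n = 6 each, 3 males and 3 females). All came from frozen hippocampi of mice between 8 and 10 months of age, and DAPI-stained nuclei were sorted by flow cytometry before droplet capture. Tau (P301S Cgas+/+ against Cgas+/+), homozygous Cgas loss (P301S Cgas-/- against P301S Cgas+/+) and heterozygous Cgas loss (P301S Cgas+/- against P301S Cgas+/+) were compared, and all of these comparisons share the P301S Cgas+/+ mice.

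Libraries held 46091490 to 79484316 UMIs. A library contributed 9 to 72 Sst nuclei (median 29), and the Sst nuclei together held 11054992 UMIs. The targeted gene, listed as Mb21d1, was read in microglia-like nuclei, since all Sst nuclei together held 7 of its UMIs. Its level was 22.5 and 13.7 CPM (UMIs of a gene per 1000000 UMIs of the summed nuclei) in the libraries labelled Cgas-/- and 15.2 to 26.3 CPM in Cgas+/+, and 27.1 to 35.5 CPM in P301S Cgas-/- against 18.7 to 36.4 CPM in P301S Cgas+/+, so it did not follow the Cgas labels. Whether 3′ tags of this gene fall in the deleted part is not given in the sources used here, and if they do not, this level checks nothing. Genotypes are therefore those the libraries were labelled with. The transgene label was compared with the noncoding RNA Gm43049 (chr3:140692038-140760704, GRCm38), which had 39 UMIs in Sst nuclei of P301S Cgas+/+, 31 in those of P301S Cgas+/-, 30 in those of P301S Cgas-/- (5 of 6 mice, with 0 in replicate 6) and 0 in the 3 non-transgenic groups. In the unclassed GABAergic nuclei it was read in all 18 transgenic libraries, among them 28 UMIs in P301S Cgas-/- replicate 6, and as 1 UMI in Cgas+/+ replicate 4. In 1 library, P301S Cgas+/- replicate 1, markers of striatal projection neurons summed to 191 CPM in the GABAergic nuclei of no class, against 9.48 to 45.7 CPM in the other 26 libraries, and this library had 1505 such nuclei and the 9 Sst nuclei. It was too small for the gene-level tests, and the differences in share that include it are also given without it. A single barcode was a member in 2 libraries, and 7324 of 234470 distinct barcodes occurred in more than 1 library.

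The gene that defines the members lies on chromosome 16 (chr16:23889573-23890958, minus strand, GRCm38, ENSMUSG00000004366). Its promoter holds the cyclic AMP response element through which CREB acts on somatostatin transcription, and the 30 bases around it are shown because the choice of members rests on this gene's level. The element, in capitals, spans positions -48 to -41 from the RefSeq start site (chr16:23890874-23890903, minus strand, GRCm38.p6), inside the 5′ untranslated part of the first exon in GENCODE.

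Sst: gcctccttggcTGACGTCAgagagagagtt

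The motif TGACGTCA reads the same on both strands and was found in 507 of 27025 RefSeq promoters (1.88%; 250 bases before to 50 after the start) and in 174 of 4743 promoters of genes tested between interneuron classes (3.67%). Among genes higher in Sst nuclei it was found in 8 of 214 promoters against Pvalb nuclei (3.74%), 6 of 236 against Vip nuclei (2.54%) and 5 of 283 against Lamp5 nuclei (1.77%). The first is level with that of the tested genes and the other two are lower, while 3 of 66 promoters of genes higher than in unclassed nuclei held it (4.55%), against 259 of 7525 of the genes tested there (3.44%). Among genes lower in Sst nuclei than in Pvalb, Vip, Lamp5 and unclassed nuclei the motif was in 2.65, 2.4, 2.43 and 2.48% of promoters, below those of the tested genes, and a match is a description of letters only.

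Most members stood close to the limit of the rule. The median member had 4 Sst UMIs, 279 members (31.1%) had exactly 3, 96 had at least 10 and the highest had 41. The 535 nuclei just outside, with 2 Sst UMIs and otherwise within the rule, were close to the 279 nuclei just inside in the levels of Grin3a, Elfn1 and Adarb2, while Reln was at 861 against 1079 CPM and Nos1 at 117 against 72.4 CPM. Grin3a, an NMDA receptor subunit, was at 925 CPM with 2 Sst UMIs and 1087 CPM with 3, against 250 CPM in nuclei with no UMI of any of the 4 class markers (called none here). Elfn1, the postsynaptic organiser that sets facilitating input onto somatostatin cells, was at 269 and 283 CPM, against 55.8 CPM with none. Adarb2, a marker of interneurons from the caudal ganglionic eminence (CGE), was at 49.8 and 50.4 CPM, against 6322 CPM in the 8169 GABAergic nuclei with no UMI of Sst, Pvalb, Vip or Lamp5 and 565 CPM in the 955 nuclei with 1 Sst UMI and none of the other three markers. Nuclei with 1 or 2 Sst UMIs remain in the unclassed GABAergic nuclei, so that group holds somatostatin cells too. Median depth was also higher in members, from 9067 UMIs with none to 10412 with 2, 11092 with 3, 11996 with 5 to 9 and 11775 with 10 or more. Thinning each nucleus to 6000 UMIs before the rule left 339 Sst of 9316 GABAergic nuclei, and thinning to 3000 UMIs left 56 of 5384, with shallower nuclei left out.

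**Figure D1:**
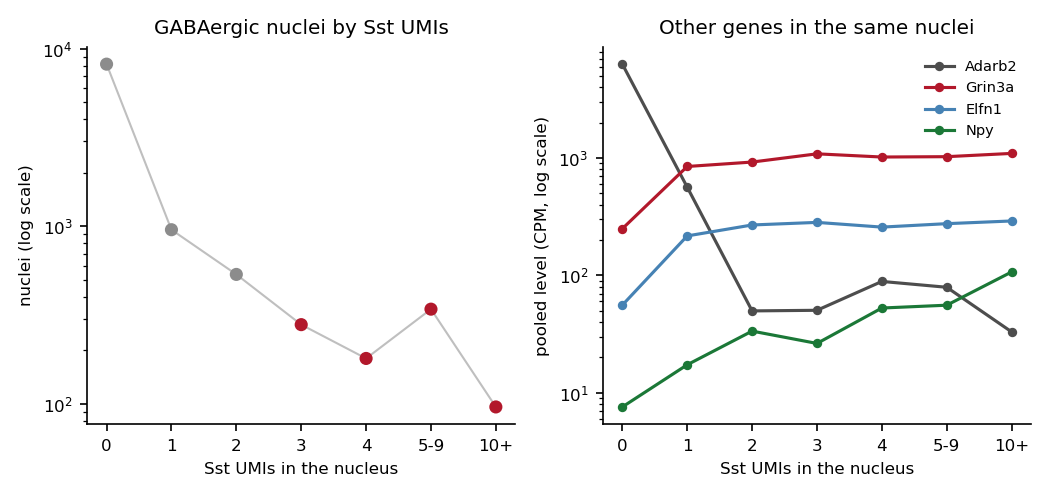
Left, number of GABAergic nuclei (log scale) by their Sst UMI count (0, 1, 2, 3, 4, 5 to 9, 10 or more), members in red; nuclei at 0 have no UMI of Sst, Pvalb, Vip or Lamp5, those from 1 up have more Sst UMIs than of each of the other markers, and other GABAergic nuclei are not shown. Right, pooled level in CPM (log scale) of 4 genes the rule did not use in the same nuclei, where Adarb2 was near 50 CPM at 2 and at 3 Sst UMIs and Grin3a and Elfn1 changed little across that limit.

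The label was checked with genes outside the rule. A UMI of Lhx6 was found in 58.8% of members, against 0.197% of 22887 excitatory nuclei and 0.229% of 34093 oligodendrocyte nuclei, which should lack it. The median depths of these gates were 11479, 13281 and 2162 UMIs. Sox6, which acts after Lhx6, was found in 83.1% of members against 8.2% of excitatory nuclei, and Satb1, the activity-dependent maturation factor, in 92.3% against 51.9%. In unclassed GABAergic nuclei Lhx6, Sox6 and Satb1 had a UMI in 30.2, 45.1 and 47.4%. All other genes of the list of MGE transcription factors but Etv1 and Zeb2 were also more frequent in members than in excitatory and oligodendrocyte nuclei. Etv1 was found in 8.71, 36 and 10.1% of members, excitatory and oligodendrocyte nuclei, and Zeb2 in 95.8, 88.7 and 97.4%. Pooled Lhx6 was 82.8 CPM in Sst, 82.8 in Pvalb, 74 in Lamp5, 1.27 in Vip and 50 in unclassed nuclei. Sox6 was at 686 CPM in Sst and 726 in Pvalb against 40.1 in Vip, 30.1 in Lamp5 and 350 in unclassed nuclei. Unlike Lhx6, it was thus also low in Lamp5 nuclei. Neither gene separated Sst from Pvalb nuclei, so this check concerns the MGE lineage and not the Sst class alone. Sst itself had a UMI in 1.27% of excitatory and 1.05% of oligodendrocyte nuclei. The median member held 3554 genes (1354 to 6479). Of the members, 256 had over 4000 genes and 41 were marked as likely doublets.

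**Figure D2:**
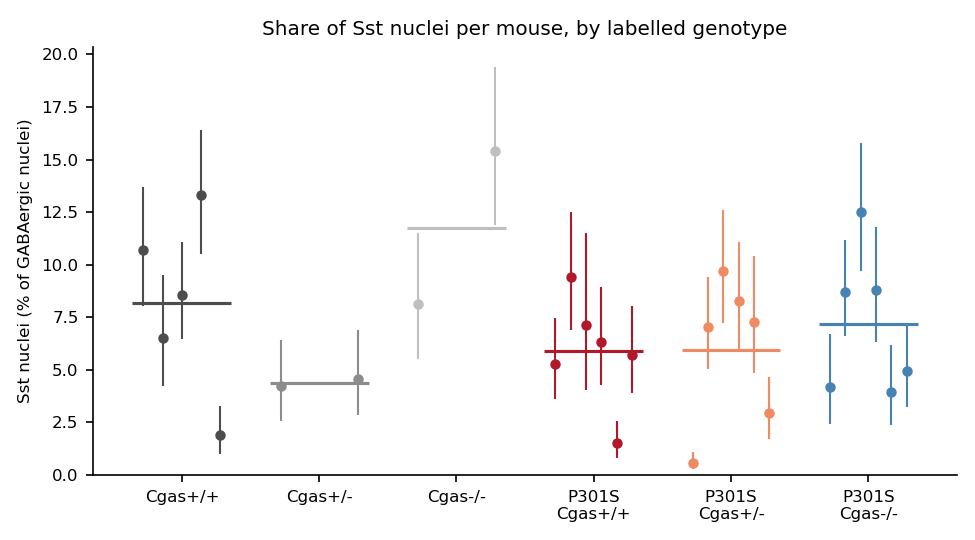
Sst nuclei as a percentage of GABAergic nuclei in each of 27 mice by labelled genotype; points are mice, bars 95% exact binomial intervals and lines group means. The ranges of the groups with 5 or 6 mice overlap.

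Across mice the Sst share of GABAergic nuclei spanned 0.586% to 15.4%. In the libraries labelled Cgas+/+ it was 10.7, 6.5, 8.58, 13.3 and 1.9%, and in P301S Cgas+/+ 5.29, 9.44, 7.14, 6.32, 1.52 and 5.71%. P301S Cgas+/- gave 0.586, 7.02, 9.68, 8.26, 7.3 and 2.93%, and P301S Cgas-/- 4.18, 8.72, 12.5, 8.78, 3.95 and 4.96%. Each of these larger groups thus held low and high mice, and they overlapped. The smaller non-transgenic groups had 4.21 and 4.57% (Cgas+/-) and 8.12 and 15.4% (Cgas-/-). Exact Clopper-Pearson 95% intervals were 0.268 to 1.11% for the lowest mouse and 11.9 to 19.4% for the highest, and cover counting error only. The Cgas+/+ mean was 8.18% ± 4.31 (SD, n = 5). Among transgenic groups of 6 mice, P301S Cgas+/+ had a mean of 5.9% ± 2.6, P301S Cgas+/- one of 5.96% ± 3.47 (7.04% ± 2.52 without replicate 1), and P301S Cgas-/- one of 7.19% ± 3.4. The tau difference was -2.28 percentage points (two-sided exact permutation p = 0.307, Benjamini-Hochberg adjusted 0.731 over the 3 contrasts). Homozygous Cgas loss gave 1.28 points (exact p = 0.487, adjusted 0.731) and heterozygous loss 0.06 points (exact p = 0.972, adjusted 0.972), or 1.13 points without replicate 1 (exact p = 0.485). The smallest p these designs allow is 0.00433 for 5 against 6 mice and 0.00216 for 6 against 6. The matrix headers name software version 3.0.2 in 12 libraries and 3.1.0 in 15. All 12 libraries with 3.0.2 came from males and those with 3.1.0 from both sexes, so version and sex were partly confounded. The tau difference was -1.22 points within 3.0.2 and -2.74 points within 3.1.0. In the same order, homozygous loss gave -0.92 and 2.38 points, and heterozygous loss -3.56 and 1.87 points. The -3.56 points rest on 2 against 2 mice, and were -0.35 points without P301S Cgas+/- replicate 1, which leaves 1 mouse against 2. In such data fewer cells of a type and less Sst RNA per cell cannot be told apart.

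The Sst level inside members, a value the rule truncates from below, is given as a description. It was 687, 497, 457, 468 and 397 CPM in Cgas+/+ and had medians of 418 CPM in P301S Cgas+/+ (343 to 564), 428 in P301S Cgas+/- (338 to 581) and 392 in P301S Cgas-/- (268 to 537). The libraries labelled Cgas-/- had 824 and 618 CPM and Cgas+/- 449 and 383 CPM, and the second Cgas-/- library lay within the Cgas+/+ range. All of these Cgas-/- and Cgas+/- libraries came from males with header version 3.0.2. The Cgas+/+ libraries of that sex and version, replicates 1 and 2, had 687 and 497 CPM. The parts of genotype, sex and version were not tested.

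To find what separates Sst from other interneuron classes beyond the genes of the rule, UMIs were summed per mouse and class, and mice with at least 10 nuclei of both classes were compared within mouse. A gene was called at a Benjamini-Hochberg adjusted p under 0.05 (edgeR quasi-likelihood test) and a log2 fold change over 1 in size. These comparisons share the Sst libraries. Among 6184 genes, 340 (5.50%) were higher and 406 (6.57%) lower in Sst than in Vip nuclei over 21 mice (398 Vip nuclei). Against Lamp5 nuclei, 383 (6.19%) were higher and 400 (6.47%) lower over 8 mice (108 nuclei). Against Pvalb nuclei, 295 (4.77%) were higher and 251 (4.06%) lower, but only 2 mice had enough nuclei (26). Sst, Pvalb, Vip and Lamp5 libraries were fitted together, so each SE and p against Pvalb nuclei takes its spread mostly from the other classes. These values do not measure how Pvalb nuclei vary between mice.

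Against Vip cells, which come from the CGE, genes of the CGE lineage were lower in Sst nuclei. Lhx6, Sox6 and Satb1 were higher, and other genes of the MGE list went both ways. Lhx6 was 54.3, 80.7 and 111 CPM (lowest, median and highest of 21 mice) in Sst nuclei and 0, 0 and 6.38 CPM in Vip nuclei, which is 5.76 ± 0.33 (SE) as a log2 fold change (adjusted p = 1.06e-21 by edgeR). Adarb2 ran the other way, at 4.07, 34.6 and 421 CPM against 15198, 21163 and 28899 CPM (-8.63 ± 0.402, adjusted p = 2.44e-17). The ranges did not overlap for either gene. Prox1, the CGE fate factor, was at a mean of 4.32 against 295 CPM (-6.05 ± 0.206), and all 5 measured CGE markers (Adarb2, Prox1, Htr3a, Cck, Cnr1) were lower in Sst nuclei. Of 12 MGE-list genes tested, 4 were higher, among them Lhx6, Sox6 and Satb1, and 4 lower (Dlx1, Dlx6os1, Npas1, Nr2f2), beside the 5.50 and 6.57% over all genes. The 4 lower genes had a higher level in this CGE class, so the list is not limited to marks of MGE origin. Dlx6os1 is antisense to Dlx6, and whether counting used strand is not given in the sources used here, so reads of such partners cannot be told apart. Among the 12 largest increases, Gna14, a Gq-family alpha subunit, had 951 UMIs in Sst and 3 in Vip nuclei, a ratio of 115 (95% counting interval 39.3 to 559). Nxph1, a neurexin ligand of inhibitory neurons, was at a mean of 3690 against 91.8 CPM (5.50 ± 0.306). Crhbp, which binds corticotropin-releasing hormone, was at 87.1 against 2.09 CPM (5.36 ± 0.266). The paralogous nicotinic modulators Lypd6 and Lypd6b had log2 fold changes of 4.79 ± 0.241 and 4.28 ± 0.185. The largest decreases also held Egfr (-6.03 ± 0.219), Sema5b (-6.55 ± 0.232) and the receptor kinase Kit (-4.51 ± 0.221).

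Of 14 tested Sst subtype genes, 9 were higher than in Vip nuclei, among them Crhbp, Npy, Reln, Chrm2, Calb1, Grin3a, Tacr1 and Nos1, and 3 lower (Penk, Kit, Calb2), where 5.50 and 6.57% of all genes were called. Npy, the peptide co-released by a part of somatostatin cells, was 16.3, 43.5 and 143 CPM in Sst nuclei (lowest, median, highest) against 0, 0 and 11 CPM (4.31 ± 0.328, adjusted p = 9.76e-17). Reln, the extracellular matrix protein reelin, was at a mean of 1137 against 118 CPM (3.23 ± 0.235). Grin3a was 729, 1001 and 1458 CPM against 112, 178 and 286 CPM (2.49 ± 0.123), with no overlap between classes. Nos1 was the weakest of these, at 3.16, 86.5 and 319 CPM against 0, 39.9 and 117 CPM, and was higher in Sst nuclei in 14 of 21 mice (1.06 ± 0.402, adjusted p = 0.0392).

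Lamp5 cells in the hippocampus include MGE-derived ivy and neurogliaform cells, and Lhx6 was not called between them (mean 87.3 CPM in Sst against 79.6 CPM in Lamp5 nuclei, 0.07 ± 0.208, adjusted p = 0.864). Elfn1 was 249, 276 and 446 CPM in Sst nuclei against 0, 1.62 and 20.3 CPM in Lamp5 nuclei of 8 mice (6.01 ± 0.29, adjusted p = 3.5e-24). Crhbp had 462 UMIs against 1, a ratio of 138 (24.6 to 5447). Satb1 was at a mean of 446 against 10.6 CPM (5.67 ± 0.369), Sox6 at 728 against 46.8 CPM (4.44 ± 0.498) and Synpr, a synaptic vesicle protein, at 1520 against 23.6 CPM (6.13 ± 0.319). Each of these was higher in all 8 mice. Of 12 MGE-list genes 4 were higher (Satb1, Sox6, Npas1, Npas3) and 1 lower (Dlx6os1). Of 14 subtype genes 5 were higher, among them Elfn1 and Crhbp, and 2 lower (Kit, Pnoc). Over all genes 6.19 and 6.47% were called higher and lower. The largest decreases were Pde11a, a phosphodiesterase of cyclic nucleotides (7.46 against 928 CPM, -6.81 ± 0.313), Adarb2 (114 against 5051 CPM, -6.28 ± 0.469), Kit (2.36 against 253 CPM, -5.60 ± 0.253) and Cacna2d1, a calcium channel accessory subunit (48 against 2128 CPM, -5.44 ± 0.232). Nfib, a nuclear factor I transcription factor, was at 52.9 against 1400 CPM (-4.85 ± 0.253). Npy was at 54.4 CPM in Sst and 41.3 CPM in Lamp5 nuclei and was not called (0.44 ± 0.265, adjusted p = 0.257).

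Pvalb cells share the MGE origin of Sst cells. In the 2 mice, Reln was 1446 and 1519 CPM in Sst nuclei against 4.49 and 9.01 CPM in Pvalb nuclei (7.97 ± 1.03, adjusted p = 1.73e-06). Grin3a was 1212 and 1458 against 4.49 and 30 CPM (5.87 ± 0.489), and Elfn1 268 and 270 against 22.4 and 24 CPM (3.62 ± 0.367). Both mice showed the same direction for each gene. Arhgap6, a GTPase-activating protein, had 242 UMIs in Sst and 0 in Pvalb nuclei, at least 36.8-fold higher, and Igf1 had 189 against 0, at least 28.8-fold higher, with 3 counts over the group as the floor. Acan, the perineuronal net proteoglycan that surrounds parvalbumin cells, had 0 UMIs in Sst and 44 in Pvalb nuclei, at least 32.1-fold lower. Syt2, the fast calcium sensor of parvalbumin terminals, was at a mean of 3.09 against 386 CPM (-7.11 ± 0.695). Lhx6 and Sox6 were not among the called MGE-list genes, of which 2 of 12 were higher (Npas1, Npas3) and 0 lower. Of 14 subtype genes 5 were higher, among them Reln, Grin3a and Elfn1, and 0 lower. Over all genes 4.77 and 4.06% were called higher and lower. The count of all called genes was 546, and leaving out P301S Cgas+/- replicate 5 gave 246, while leaving out P301S Cgas-/- replicate 3 gave 378. Each of these rests on 1 Pvalb library, which is assumed to vary like the libraries of the other classes in the same fit, since it has no spread of its own. DESeq2 did not call Acan.

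**Figure D3:**
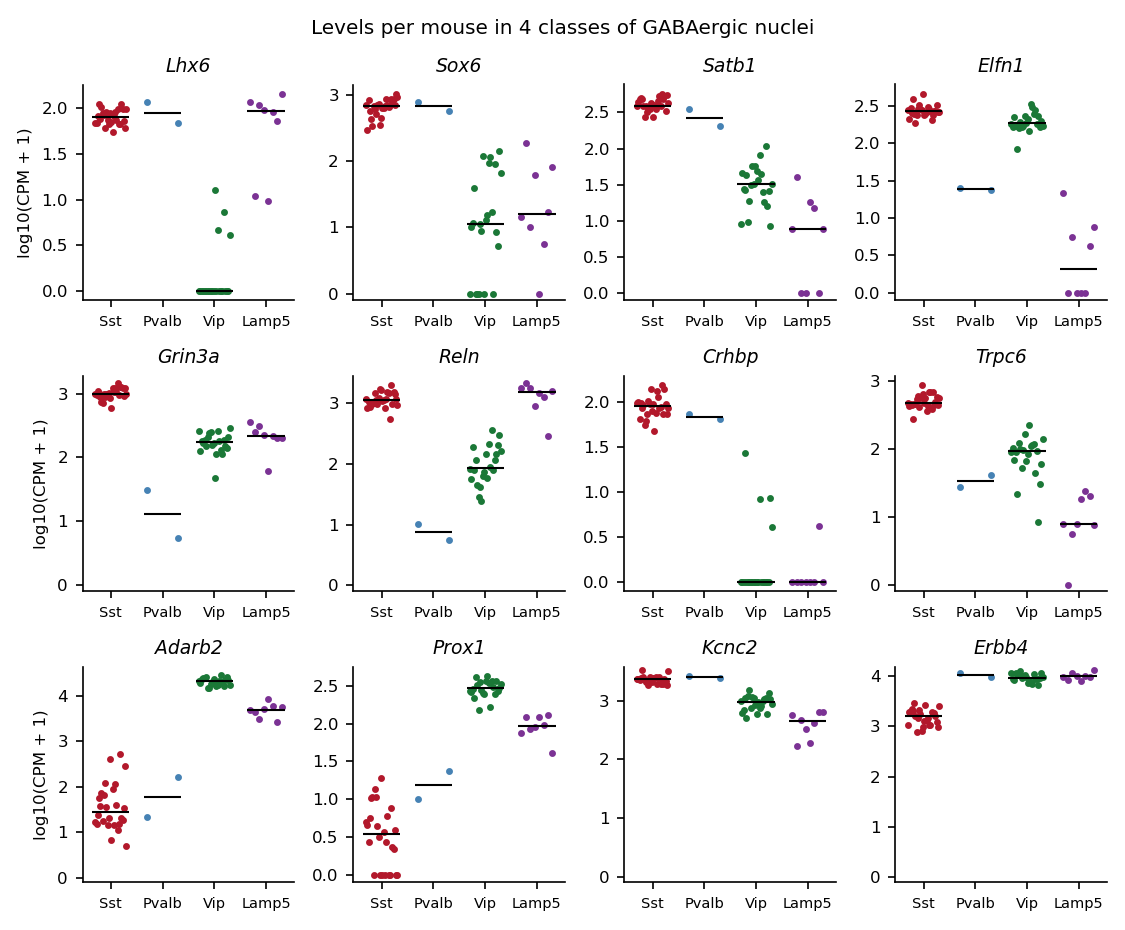
Level per mouse, as log10 of CPM + 1, of 12 genes in Sst (red), Pvalb (blue), Vip (green) and Lamp5 (purple) nuclei; points are mice with at least 10 nuclei of that class and black lines are medians. Adarb2 is low in Sst and Pvalb nuclei, the medians of Elfn1 and Grin3a are highest in Sst nuclei, and that of Erbb4 is lowest there.

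Genes called in the same direction against Pvalb, Vip and Lamp5 nuclei were ranked by the smallest of their 3 fold changes, and those named here are among the 12 leading ones in each direction. Against Pvalb nuclei, Unc13c, Cdh9, Pappa, Lypd6, Dpf3, Chsy3, Nfib, Cdh20 and Ajap1 lost their call without 1 of the 2 mice, under that assumption. Under the study's limit of 4000 genes, Pappa was not called against Lamp5 nuclei and its log2 fold change turned to -0.23 (adjusted p = 0.837). Higher ones were Lama4, Unc13c, Klf5, Tmcc3, Cdh9, Trpc6, Pappa, Grin3a, Lypd6b, Ralyl and Lypd6. Lama4, a laminin chain, was at 149 against 3.74 CPM in Pvalb, 85.7 against 3.77 CPM in Vip and 94 against 1.65 CPM in Lamp5 nuclei (5.16 ± 0.587, 4.0 ± 0.225 and 5.58 ± 0.442). Trpc6, a receptor-operated cation channel, had log2 fold changes of 4.09 ± 0.543, 2.43 ± 0.162 and 5.34 ± 0.364, and Cdh9, a classical cadherin, 2.56 ± 0.52, 3.18 ± 0.21 and 2.77 ± 0.309. Lower ones were Unc5b, Caln1, Pde11a, Dpf3, Erbb4, Pde5a, Chsy3, Nfib, Kcnh1, Parm1, Cdh20 and Ajap1. Erbb4, the neuregulin receptor through which excitatory input onto interneurons is set, was at 1324 against 10413 CPM in Pvalb, 1646 against 9401 CPM in Vip and 1486 against 9976 CPM in Lamp5 nuclei (-2.88 ± 0.324, -2.60 ± 0.133 and -2.76 ± 0.182). Its highest Sst value in the Vip comparison, 2873 CPM, lay below the lowest Vip value, 6499 CPM. Caln1, a neuronal calcium-binding protein, had log2 fold changes of -3.27 ± 0.41, -3.54 ± 0.171 and -3.84 ± 0.228.

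Against the GABAergic nuclei of no class, in 26 mice and with 9827 genes tested, 107 genes (1.09%) were higher and 333 (3.39%) lower in Sst nuclei. That comparison was added after the nuclei had been counted. Trpc6 was 274, 484 and 872 CPM in Sst nuclei (lowest, median, highest) against 81.7, 118 and 166 CPM (2.15 ± 0.0613, adjusted p = 1.55e-25). Elfn1 was 183, 267 and 446 against 50.9, 76.7 and 100 CPM (1.86 ± 0.0535), higher in 26 of 26 mice with no overlap. Npy was higher in 25 of 26 mice (mean 47.6 against 10.9 CPM, 2.15 ± 0.137), the exception being a P301S Cgas+/+ mouse at 3.32 CPM. Hpse, the heparan sulphate-cleaving enzyme heparanase, was at a mean of 16.6 against 2.95 CPM (2.41 ± 0.244). Adarb2 was again lowest relative to the comparator (80.4 against 5302 CPM, -6.51 ± 0.304). Of 15 subtype genes, 8 were higher, among them Hpse, Npy, Crhbp, Elfn1, Grin3a, Cbln4 and Rbp4, and Kit was lower, against the 1.09 and 3.39% over all genes. Of 13 MGE-list genes, 1 was higher (Satb1) and 1 lower (Dlx6os1), and Lhx6 and Sox6 were not called.

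Genes for peptide processing and secretion differed by comparator. Of 13 tested, Pcsk1 and Vgf were higher in Sst than Pvalb nuclei, Vgf, Pcsk1 and Chga were higher than in Lamp5 nuclei, and Pcsk1, Pcsk2 and Cadps2 were lower than in Vip nuclei, with list medians of 0.36, 0.35 and 0.06 against 0.01, 0.02 and 0.01 over all genes. The share of all genes called was 4.77% higher against Pvalb, 6.19% higher against Lamp5 and 6.57% lower against Vip nuclei. Against the unclassed nuclei Vgf was higher and Cadps2 lower, where 1.09 and 3.39% of all genes were called. Vgf, a granin-like precursor, was 58.1, 107 and 181 CPM in Sst nuclei against 0, 20.2 and 34.7 CPM in Lamp5 nuclei (2.50 ± 0.282). Pcsk1, the prohormone convertase, was at a mean of 32.3 against 6.17 CPM there (2.22 ± 0.439), but at 33.3 against 97.8 CPM in the Vip comparison (-1.61 ± 0.147). Cadps2, a priming factor of dense-core vesicles, was at 25.8 against 428 CPM in Vip nuclei (-3.95 ± 0.221) and 26.6 against 325 CPM in the unclassed nuclei (-3.59 ± 0.122).

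The glutamate and acetylcholine receptor list was mostly higher in Sst nuclei where it was called. Of 21 tested, 5 were higher and 0 lower against Pvalb (median 0.63), 8 and 2 against Vip (0.03), and 7 and 2 against Lamp5 nuclei (0.32). Over all genes 4.77 and 4.06%, 5.50 and 6.57%, and 6.19 and 6.47% were higher and lower in these comparisons, so that the higher members exceeded the background in each and the 2 lower ones were close to it. Gria1, an AMPA receptor subunit, was 3489, 5580 and 7235 CPM against 420, 1108 and 1960 CPM in Vip nuclei (2.14 ± 0.18), with no overlap. Grik3, a kainate receptor subunit, was at a mean of 499 against 67.6 CPM in Vip nuclei and 540 against 45.6 CPM in Lamp5 nuclei (2.92 ± 0.239 and 3.63 ± 0.4). The muscarinic receptor Chrm3 was at 1933 against 287 CPM in Pvalb nuclei (2.58 ± 0.332) and 1659 against 329 CPM in Lamp5 nuclei (2.32 ± 0.174), while Chrm1 was lower than in Vip (-1.16 ± 0.242) and Lamp5 nuclei (-1.67 ± 0.323).

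Genes of GABA signalling were called lower most often against Lamp5 nuclei. Of 20 genes of GABA synthesis, transport and reception, 2 were higher and 4 lower against Pvalb (median -0.28), 1 and 2 against Vip (-0.26), 2 and 9 against Lamp5 (-0.34), and 0 and 4 against unclassed nuclei (-0.35). Over all genes 4.77 and 4.06%, 5.50 and 6.57%, 6.19 and 6.47%, and 1.09 and 3.39% were higher and lower, so the counts against Vip nuclei were near the background. Of 12 GABA-A receptor subunits on the list, 1 was higher and 4 lower against Pvalb, 1 and 1 against Vip, 2 and 6 against Lamp5, and 0 and 4 against unclassed nuclei. Gabrg3 was called lower each time, for example at 261, 641 and 776 CPM against 2771, 4530 and 6700 CPM in Lamp5 nuclei (-2.87 ± 0.203). Gabrd, the subunit of extrasynaptic receptors that carry tonic inhibition, was lower than in Pvalb (-2.66 ± 0.555), Lamp5 (-2.47 ± 0.384) and unclassed nuclei (-2.30 ± 0.158).

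Voltage-gated channels separated Sst from fast-spiking Pvalb nuclei in both directions, with 7 higher and 6 lower of 33 (median -0.18), where 4.77 and 4.06% of all genes were called. Kcnc1, a Kv3 channel of fast-spiking cells, was 127 and 186 CPM in Sst nuclei of the 2 mice against 568 and 803 CPM (-1.94 ± 0.186, adjusted p = 3.13e-11). Kcna1 and Kcnip2 were lower too, with log2 fold changes of -1.59 ± 0.357 and -2.50 ± 0.316. Kcnd3, an A-type channel, was at a mean of 558 against 96.6 CPM (2.62 ± 0.261). Kcnc2, the other Kv3 gene of interneurons, was 1869, 2351 and 3331 CPM against 512, 989 and 1540 CPM in Vip nuclei (1.27 ± 0.114) and at a mean of 2166 against 432 CPM in Lamp5 nuclei (2.42 ± 0.188). Kcnip4, an accessory subunit of A-type channels, was at 1236 against 10821 CPM in Vip nuclei (-3.32 ± 0.196). Against Vip nuclei 3 of the 33 were higher and 7 lower (median -0.02), where 5.50 and 6.57% of all genes were called. Against Lamp5 nuclei 3 were higher and 2 lower (0.03), near the 6.19 and 6.47% over all genes. Against unclassed nuclei 0 of 35 were higher and 5 lower (Kcnip4, Kcnip2, Kcnq5, Cacna1h, Cacnb2; median -0.18), where 1.09 and 3.39% of all genes were called.

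Lists of tau and transgene genes, interferon and cGAS-STING genes and stress genes had 0 called members in the class comparisons, but most of the interferon list was too low to be tested. Against Pvalb, Vip and Lamp5 nuclei 7 of 14 tau genes, 2 of 31 interferon and cGAS-STING genes and 6 of 12 stress genes were tested, and against unclassed nuclei 10, 8 and 8. Mapt, the endogenous tau gene, had log2 fold changes of 0.37, -0.08, 0.05 and 0.05 against Pvalb, Vip, Lamp5 and unclassed nuclei. Among 22 genes that the study named in interneurons, a list it chose on these samples, 1 was higher and 5 lower against Pvalb, 5 and 3 against Vip, 5 and 5 against Lamp5, and 0 and 4 against unclassed nuclei. Over all genes 4.77 and 4.06%, 5.50 and 6.57%, 6.19 and 6.47%, and 1.09 and 3.39% were called, so the 1 higher gene against Pvalb nuclei is at the background. Mef2c, an activity-dependent transcription factor on that list, was 293 and 412 CPM in Sst against 955 and 1120 CPM in Pvalb nuclei (-1.58 ± 0.301, adjusted p = 0.000307).

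The members were not uniform. Those with at least 3 UMIs were 792 for Grin3a (88.4%), 637 for Reln (71.1%), 469 for Elfn1 (52.3%), 186 for Chrm2 (20.8%), 131 for Crhbp (14.6%), 63 for Npy (7.03%), 52 for Calb1 (5.8%), 50 for Nos1 (5.58%) and 33 for Tacr1 (3.68%). A single Npy UMI was found in 26% of members, against 0.323% of excitatory and 0.214% of oligodendrocyte nuclei and 7.07% of the unclassed GABAergic nuclei. After thinning each nucleus to 3000 UMIs, the shares were 11.7% of members and 2.51% of unclassed nuclei. Nos1 had a UMI in 16.3% of members, in 21.4% of unclassed GABAergic, 22.8% of excitatory and 1.16% of oligodendrocyte nuclei (7.49, 11.1, 7.03 and 1.81% after thinning), and its pooled level was 115 CPM in members, 54.1 in unclassed, 28.1 in excitatory and 5.43 in oligodendrocyte nuclei. Since a UMI was no more frequent in members than in unclassed or excitatory nuclei before thinning, members with at least 3 are described.

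The 50 members with at least 3 Nos1 UMIs, from 20 mice stood apart from the others in many genes. They held 54 of the 55 Chodl UMIs of all members, and Chodl, a chondrolectin, is a known marker of long-range nitric oxide synthase cells. Tacr1, the substance P receptor, had 320 UMIs in these 50 nuclei and 65 in the other 846 (493 against 6.25 CPM). Chrm2, the M2 muscarinic receptor, was at 1104 against 112 CPM, Npy at 289 against 37.2 CPM, Sox6 at 2067 against 600 CPM and Crhbp at 211 against 84.5 CPM. Lhx6 was alike in level, at 90.8 and 82.3 CPM. Genes of the other somatostatin cells were low, with Reln at 209 against 1233 CPM, Elfn1 at 106 against 287 CPM, Calb1 at 9.24 against 43.5 CPM, Npas1 at 13.9 against 86.2 CPM and Npas3 at 576 against 2515 CPM. Hpse, Cort and Crhr2 had 0 UMIs in the 50 nuclei against 181, 86 and 89 in the others. Depth was close, with a median of 11804.5 against 11459 UMIs. Genes chosen after their values were seen included Ntn1, the guidance cue netrin-1 (205 against 6 UMIs, 316 against 0.577 CPM), Bace2 (55 against 12 UMIs), Adgrg6 (119 against 35), Npsr1 (79 against 33) and, on the low side, Gna14 (11 against 1103 UMIs) and Rgs6 (105 against 7655). All of these values come from pooled nuclei split by a measured gene, so they are a description with no test.

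**Figure D4:**
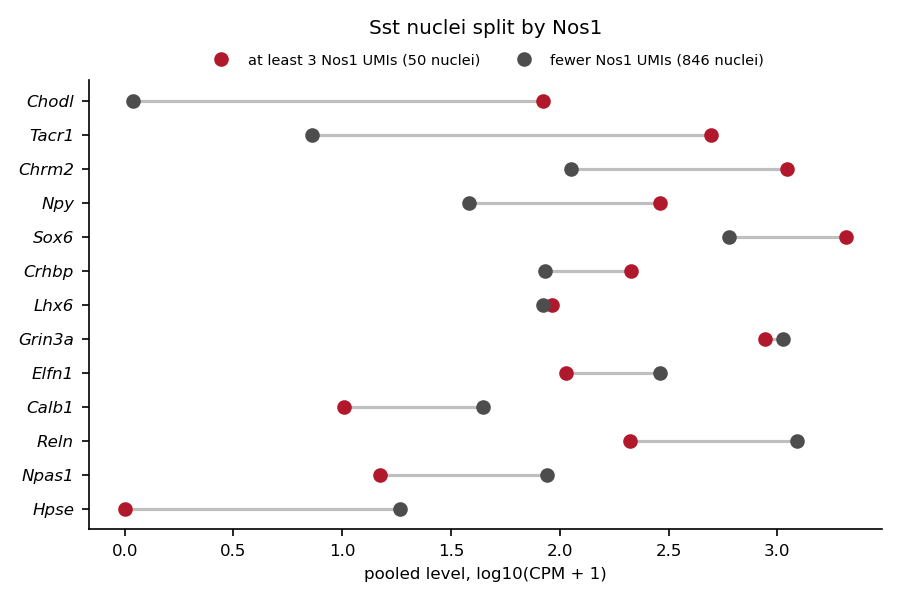
Pooled level (log10 of CPM + 1) of subtype and lineage genes in 50 Sst nuclei with at least 3 Nos1 UMIs and in the other 846. Chodl, Tacr1, Chrm2 and Npy lie above, and Reln, Elfn1, Calb1, Npas1 and Hpse below, the level of the other members.

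By labelled genotype these Nos1 nuclei were 9 of 213 Sst nuclei in Cgas+/+ (3 mice had any), 3 of 41 in Cgas+/- (2 mice), 1 of 88 in Cgas-/- (1 mouse), 6 of 159 in P301S Cgas+/+ (4 mice), 13 of 181 in P301S Cgas+/- (5 mice) and 18 of 214 in P301S Cgas-/- (5 mice). They were found in transgenic and non-transgenic mice, too few for a comparison per mouse.

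The response of Sst nuclei to genotype was tested on the summed UMIs of 22 mice with at least 10 Sst nuclei in 4 groups, with sex as a covariate. Of 6401 genes, 0 (0%) passed an adjusted p of 0.05 in the tau comparison by edgeR, 213 had an unadjusted p under 0.05 (3.33%), the lowest adjusted p was 0.726, and DESeq2 called 0. Homozygous Cgas loss gave 0 (0%) by edgeR with 340 at unadjusted p (5.31%), and 2 by DESeq2 among the 1809 genes to which it gave an adjusted p, and heterozygous loss 0 (0%) with 244 (3.81%) and 0 by DESeq2. The median SE of a log2 fold change was 0.237 to 0.249. In simulated counts for the tau comparison, 100 genes were changed 2-fold and 100 were changed 4-fold. Of these, 72% and 100% were recovered, with 12 false calls among the genes left unchanged. The changes were placed only in genes above a minimum count, and counts were drawn without the gene-wise spread of the quasi-likelihood fit. These shares therefore do not set what size of change the 0 calls exclude.

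For tau the 5 genes of smallest p did not pass. Rtkn2, a rhotekin family protein, was 5.94, 14.1, 6.73, 5.73 and 18.9 CPM in Cgas+/+ and had a lowest, median and highest value of 13.2, 28.8 and 58.2 CPM in P301S Cgas+/+ (1.96 ± 0.466, edgeR adjusted p = 0.726). Hlf, a clock-linked PAR bZIP factor, was 35.6, 45.8, 38.7, 24.1 and 18.9 CPM against 5.82, 9.78 and 24.5 CPM (-1.48 ± 0.36, adjusted p = 0.726). Both pairs of ranges overlapped. Mef2c was 396, 324, 498, 407 and 426 CPM in Cgas+/+ and 373, 244, 182, 232, 175 and 372 CPM in P301S Cgas+/+ (-0.64 ± 0.177, adjusted p = 1). It overlapped through 2 transgenic mice that lay above the lowest control mouse, and among the alternatives it passed with no low-count filter alone (adjusted p = 0.0407). Elmo1, a Rac activator, had -0.78 ± 0.22 (mean 108 against 181 CPM). Edaradd, a death domain adaptor, had 0.88 ± 0.26 (49 ± 11.7 against 24.4 ± 8.92 CPM, SD) with no overlap. Edaradd was picked for its small p, so the lack of overlap adds no separate support. With no low-count filter Rtkn2 (1.94, adjusted p = 0.0407) and Elmo1 (-0.79, adjusted p = 0.0215) passed as well, and Hlf and Edaradd did not (adjusted p = 0.107 and 0.778). Npy differed by -0.33 ± 0.49 and Mapt by 0.01 ± 0.129, at 493 CPM in both groups.

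For homozygous Cgas loss, Pex5l, the TRIP8b subunit that traffics HCN channels, was 512, 600 and 789 CPM (lowest, median, highest) in P301S Cgas-/- against 338, 382 and 470 CPM in P301S Cgas+/+ (0.66 ± 0.138, edgeR adjusted p = 0.175). Its ranges did not overlap, and DESeq2 called it (0.65, adjusted p = 0.0106). Galnt14, a mucin-type glycosyltransferase, was 118, 194 and 273 CPM against 70.2, 96 and 175 CPM (0.90 ± 0.197, adjusted p = 0.175), and was called by DESeq2 (adjusted p = 0.0485). Myo5b, a recycling endosome motor, was 26.3, 54.1 and 70 CPM against 84.2, 97.3 and 166 CPM (-1.17 ± 0.258, adjusted p = 0.175), with no overlap. Trabd2b, a Wnt-cleaving protease, was at a mean of 2.78 against 20.8 CPM (-2.77 ± 0.64), and Rerg, a Ras-like GTPase, at 63.7 against 21.3 CPM (1.49 ± 0.341), both at an adjusted p of 0.175. With no low-count filter all 5 passed, and Pex5l and Myo5b also with the 2 groups fitted alone (adjusted p = 0.0383 and 0.00523). Under 4000 genes, with likely doublets removed, with no sex covariate or with at least 5 Sst UMIs, 0 genes passed in edgeR. The 5 genes were picked for their small p, so ranges without overlap add no separate support. The share of all genes with such ranges is not given here. Mef2c was 206, 401 and 526 CPM against 175, 238 and 373 CPM (0.54 ± 0.171, adjusted p = 0.595), and Npy differed by 0.39 ± 0.47.

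For heterozygous loss, with 5 P301S Cgas+/- mice in the fit, Galnt14 had 0.96 ± 0.202 (213 ± 42.6 against 104 ± 36.7 CPM, SD, edgeR adjusted p = 0.296). It passed with no low-count filter (0.99, adjusted p = 8.12e-05) and with the 2 groups fitted alone (0.95, adjusted p = 0.0357). It also passed without P301S Cgas+/+ replicate 4 (1.20, adjusted p = 0.00632). That mouse had the highest Galnt14 level of its group (175 CPM, next highest 105 CPM), so leaving it out raises the difference. By DESeq2, under 4000 genes, with likely doublets removed, with no sex covariate or with at least 5 Sst UMIs, 0 genes passed for heterozygous loss. Kcnip1, an accessory subunit of A-type potassium channels, was at a mean of 658 against 321 CPM (0.98 ± 0.254), Pcdh19, a protocadherin, at 57 against 101 CPM (-0.78 ± 0.217) and Rtkn2 at 11.7 against 31.4 CPM (-1.45 ± 0.426), each at an adjusted p of 1. Galnt14 in the non-transgenic groups was 85.1, 109, 160, 126 and 114 CPM in Cgas+/+, 33.8 and 112 CPM in Cgas+/-, and 41 and 54.8 CPM in Cgas-/-. The libraries labelled Cgas-/- without the transgene were therefore below the Cgas+/+ range for this gene, whereas P301S Cgas-/- lay at 118 CPM and above. For Mef2c, Cgas+/- had 324 and 254 CPM and Cgas-/- 316 and 250 CPM.

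**Figure D5:**
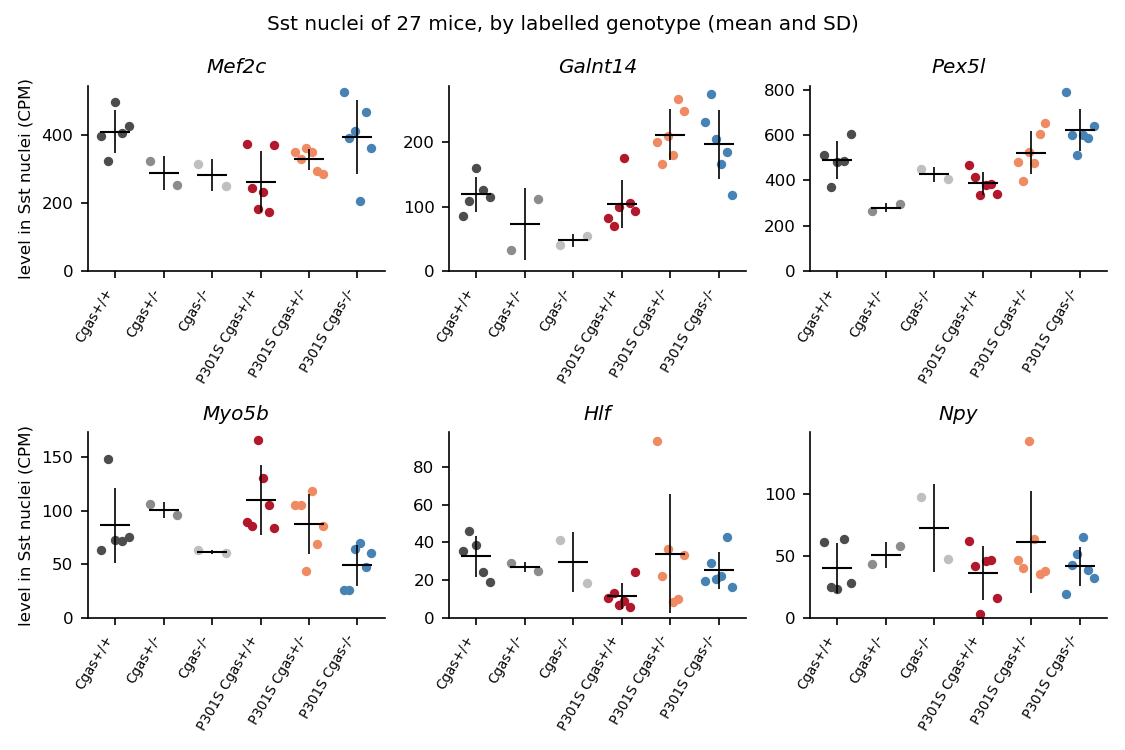
CPM per mouse in Sst nuclei for named genes of the genotype comparisons by labelled genotype; points are mice, black marks group means and bars SD. Pex5l and Myo5b, which were picked for their small p, do not overlap between P301S Cgas-/- and P301S Cgas+/+. No gene passed an adjusted p of 0.05 in the main edgeR test.

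Every list had 0 called members in each genotype comparison of the main edgeR fit. With no low-count filter, Gm43049 (5.93, edgeR adjusted p = 1.72e-06), Mef2c and Kcnd2 passed for tau. In that setting Sox6, Gria1, Kcnb2 and Kcnmb2 passed for homozygous loss. Gria1 and Kcnb2 also passed without P301S Cgas-/- replicate 4, and Kcnip1 with the 2 groups fitted alone. In the main fit the median over all genes was 0.00, 0.01 and 0.00 for tau, homozygous and heterozygous loss. For 12 MGE-list genes the medians were 0.07, 0.05 and -0.06. They were 0.15, 0.27 and 0.27 for 13 subtype genes, and 0.07, -0.19 and 0.01 for 13 peptide release genes. For 18 GABA genes they were 0.03, -0.04 and -0.10, for 32 channels 0.10, -0.04 and -0.05, and for the 22 study-named genes, chosen on these samples, -0.06, -0.04 and -0.02. Only 3 of 31 interferon and cGAS-STING genes passed the low-count filter in Sst nuclei, with medians of 0.37, -0.14 and -0.45.

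Whether the genotype response of Sst nuclei differed from that of the unclassed GABAergic nuclei of the same mice was tested as an interaction over 11558 genes. For tau 1 gene was called (0.00865%), the long noncoding RNA Gm26883 (chr2:169633646-169888503, GRCm38), with a difference of -4.14 ± 0.682 (edgeR adjusted p = 0.00207). Its Sst UMIs were 17, 4, 21, 6 and 0 in Cgas+/+ and 1, 2, 0, 0, 0 and 1 in P301S Cgas+/+, so the call rests on few molecules and on 4 of 5 control mice, and DESeq2 called 0 genes. In simulated counts for this tau interaction, made in the same way and with the same limits, 49% of 2-fold and 78% of 4-fold changes were recovered. The homozygous and heterozygous interactions had 0 called genes (0% each) by edgeR, with 520 and 457 at an unadjusted p under 0.05, and DESeq2 called 1 and 0. Galnt14 came closest, at 1.02 ± 0.191 for homozygous loss (adjusted p = 0.0563) and 0.87 ± 0.195 for heterozygous loss (adjusted p = 0.421), followed by Hlf for tau (-1.65 ± 0.347, adjusted p = 0.079) and Pex5l for homozygous loss (0.65 ± 0.14, adjusted p = 0.109).

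Markers of other cell types were present at low levels in Sst nuclei and varied between mice. Summed CPM over 6 excitatory markers was 216, 362 and 540 (lowest, median, highest) in P301S Cgas+/+ and 204, 257 and 362 in P301S Cgas-/-, and over 5 astrocyte markers 52.7, 191 and 253 and 19.4, 144 and 424. Microglia markers summed to 38.8 CPM and CGE markers to 126 CPM over all Sst nuclei, against 39.2 and 5229 CPM in the unclassed GABAergic nuclei. Over 3 choroid plexus markers the medians in Sst nuclei were 3.36, 14 and 0 CPM in Cgas+/+, P301S Cgas+/+ and P301S Cgas-/-. The highest mice had 39.6, 111 and 84.9 CPM and the lowest 0 in each, so the ranges overlapped. In the unclassed nuclei the medians were 2.16, 21.7 and 3.37 CPM. The highest CGE sums, 487 CPM in P301S Cgas+/+ and 592 CPM in P301S Cgas-/-, were single mice, and their part in the gene results was not tested.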

How the data were processed

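Nuclei from frozen hippocampi of 27 mice were profiled with the 10x 3′ kit (version 3). The deposited matrices hold counts of UMIs per gene and barcode, made by the authors in Cell Ranger (3.1.0 in the submitters' processing notes, beside Seurat 3.0; headers name 3.0.2 or 3.1.0) against mm10 with unspliced reads included. The study's limit of 4000 genes was an alternative. Likely doublets were marked at 0.8% per 1000 barcodes and kept. UMIs were summed per mouse and class for mice with at least 10 nuclei, and tested with edgeR 4.0.16 (quasi-likelihood, TMM, filterByExpr; R 4.3.3). Genotype fits had sex as a covariate, and class fits the mouse as a block. The SE given with a log2 fold change is its size divided by the square root of the quasi-likelihood F statistic. Genes of the rule and mitochondrial genes were not tested. Shares were compared by exact permutation (scipy 1.17.1), and DESeq2 1.42.0 was an alternative. The fits were tested on simulated counts. Replicates are separate mice per the labels. The fit was planned for all P301S mice, but P301S Cgas+/- replicate 1 had too few nuclei, which left 22 mice.

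Named genes were the 5 of smallest p in each genotype contrast, the 12 highest and 12 lowest called genes of each class comparison with at least 50 CPM, those called in 1 direction against all 3 classes (12 per direction), called members of the gene lists, and Npy, Mef2c, Mapt and Mb21d1. The members and lists were chosen with earlier results of these data known. Results for some genes are not reported here.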

Additional observations from a re-analysis of the deposited data

Results flagged for a closer look

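Of 68 groups of 4 to 10 mice examined for a mouse far from the rest, 4 had one, and chance gives about 1 in 20. Myo5b was 148 CPM in the Sst nuclei of Cgas+/+ replicate 2, and the next highest mouse of that group had 75.7 CPM. Galnt14 was 175 CPM in P301S Cgas+/+ replicate 4, with 105 CPM the next highest. Npy was 143 CPM in P301S Cgas+/- replicate 3, with 64.2 CPM the next highest. Edaradd was 13.1 CPM in P301S Cgas-/- replicate 1, with 37.1 CPM the next lowest.

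The tau difference of Gm26883 was not the same in Sst nuclei as in the unclassed GABAergic nuclei, by -4.14 on the log2 scale (edgeR adjusted p = 0.00207 for the interaction). Sst nuclei held 48 UMIs of it in Cgas+/+ and 4 in P301S Cgas+/+, and the unclassed nuclei 262 and 409. In Sst nuclei of the other groups it had a mean of 12.8 CPM in Cgas+/-, 1.41 in Cgas-/-, 11.9 in P301S Cgas+/- and 7.56 in P301S Cgas-/-, beside 18 in Cgas+/+ and 1.76 in P301S Cgas+/+.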

How the results depend on the processing

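Differences in the Sst share changed sign under some settings and passed no test in any. Thinning each nucleus to 3000 UMIs before the rule gave 56 Sst nuclei, where 896 were found without thinning. The differences were then -0.53 points for homozygous and -0.38 for heterozygous loss. Thinning to 6000 UMIs, chosen after seeing the data, gave 339 Sst nuclei and differences of 0.43 and 0.33. A minimum of 5 Sst UMIs gave -0.16 and -0.56. Heterozygous loss gave -0.046 with likely doublets removed and -0.85 within software versions (0.76 without P301S Cgas+/- replicate 1, chosen after seeing the data). Without that replicate the heterozygous difference was -0.26 and 0.89 at 3000 and 6000 UMIs, -0.03 with 5 Sst UMIs and 1.08 with likely doublets removed. Leaving out 1 mouse gave -3.85 to -1.01 points for tau, 0.21 to 1.99 for homozygous and -0.82 to 1.13 for heterozygous loss.

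Genes called for tau, homozygous and heterozygous loss went from 0 each to 7, 31 and 2 with no low-count filter. DESeq2 called 2 for homozygous loss, and the 2 groups fitted alone gave 5 for homozygous and 2 for heterozygous loss. A limit of 4000 genes gave 1 for tau. Leaving out 1 mouse gave 0 to 11 for homozygous loss (11 without P301S Cgas-/- replicate 4) and 0 to 1 for heterozygous loss (1, Galnt14, without P301S Cgas+/+ replicate 4). Class counts were 1290 (Vip) and 1132 (unclassed) with no filter, 339 (Lamp5) in Cgas+/+ mice alone, and 212, 418 and 430 (Pvalb, Vip, Lamp5) after thinning to 3000 UMIs. With at least 3 nuclei per mouse, chosen after seeing the data, they were 427 (Vip) and 435 (Lamp5). Without 1 of the Pvalb mice, which leaves 1 Pvalb library with the spread of the other classes, the count was 246 to 378. The interaction counts were 7, 13 and 4 with no filter, and DESeq2 gave 0 for tau and 1 for homozygous loss. The causes were not tested.

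Of single genes, Npy for tau became 0.11 under 4000 genes and -0.5 to 0.02 without 1 mouse. Mapt for tau was 0.00 by DESeq2 and -0.03 to 0.09 without 1 mouse, for homozygous loss -0.09 to 0.03, and for heterozygous loss -0.07 under 4000 genes, -0.08 with 5 Sst UMIs and -0.04 to 0.08 without 1 mouse. Pappa against Lamp5 was -0.23 under 4000 genes. Across settings other than leaving out 1 mouse, 1180 single-gene values kept direction and side of the threshold, 21 lost their call, 14 gained one and 5 changed sign, and leaving out 1 mouse gave 291, 20, 6 and 13. The Pvalb comparison under 4000 genes and in Cgas+/+ mice alone had too few nuclei to be run. For the genotype contrasts the groups hold different mice, and no paired analysis was possible because the replicate numbers only name the mice. The class comparisons were paired by mouse throughout.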
